A study of Mus musculus with 9 samples.

Results

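The genes described here code for enzymes that oxidise alcohols and aldehydes, the substrates of the retinoid pathway among them. They are Adh1, Adh5, Adh7, Aldh1a1, Aldh1a3, Aldh2, Aldh3a1, Aldh3a2, Aldh3b2 and Aox1, taken by gene name from the deposited gene tables, and they make up 10 of the 54532 genes listed. All 10 were tested, and 9 passed edgeR's filter on low counts, the exception being Aldh1a3. The names were picked for what the enzymes do, with earlier results of these data known. The study that reported these data had itself named Adh1, Aldh3a1 and Aldh3b2 among the genes lower in lysine-free cells. Their falls were thus known beforehand, so counts of called genes among the 10 are a description and not independent support.

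3T3-L1 is an established mouse preadipocyte line that fills with lipid when given adipogenic hormones. PolyA-selected RNA was sequenced from 3 groups of 3 libraries each. Undifferentiated cells were held confluent for 3 days in DMEM with 10% BCS (bovine calf serum). Differentiated cells came from such confluent cells and were then given a medium with insulin (10 μg/mL), rosiglitazone (1 μM), IBMX (3-isobutyl-1-methylxanthine, 0.5 mM) and dexamethasone (1 μM). Lysfree cells received the same agents in medium to which no lysine was added, and the study measured traces of lysine left in it. By the study's methods both differentiation media were made from an arginine- and lysine-free DMEM with arginine and fetal bovine serum added, so that Differentiated and Undifferentiated cells also differed in medium base, in serum and in time in culture. These cannot be told apart from the hormones. Lysfree and Differentiated cells differed by the added lysine. All cells are of 1 line and the labels do not say whether the libraries of a group came from separate cultures, so the p-values measure the spread between these libraries, which may be technical.

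Total counts ranged from 15880144 to 21806693 per library. The summed FPKM of 10 adipocyte markers was 320 to 404 in Undifferentiated, 6941 to 7296 in Differentiated and 292 to 408 in Lysfree libraries, with Lep and Retn at no more than 3 counts in every Lysfree library. Similar sums hid differences between Undifferentiated and Lysfree cells: the mean was lower in Lysfree for every marker but Cd36 and Lpl. Adipoq was 57.8 ± 14.3 and 4.18 ± 0.704 FPKM and Cidec 36.7 ± 8.43 and 12.05 ± 1.69. Cebpa was 22.9 ± 2.76 and 8.23 ± 1.85, and Pparg 13.7 ± 1.21 and 8.47 ± 1.72. Cd36 was 16.6 ± 0.891 and 72.7 ± 21.3, and Lpl 146 ± 1.47 and 188 ± 43.7 (SD, n = 3). The Lpl level was 238 FPKM in Lysfree 1 and 162 and 163 in Lysfree 2 and 3. Summed levels of 8 fibroblast and preadipocyte markers were 4375 to 4804, 1074 to 1090 and 2255 to 2287 FPKM in the same order. Col1a1 and Col1a2 carried most of the Undifferentiated sum and were lower in Lysfree cells. Dlk1 was also lower there (65.2 ± 3.54 against 270 ± 2.70 FPKM), as were Pdgfra (12.9 ± 1.69 against 43.7 ± 2.28) and Pdgfrb (54.3 ± 1.99 against 84.4 ± 4.98). Fn1 (719 ± 14.3 FPKM) and Thy1 (89.1 ± 7.73) in Lysfree cells were above their Undifferentiated means of 380 ± 44.5 and 70.4 ± 1.47. Vim was 607 ± 61.6 in Lysfree and 602 ± 9.12 in Undifferentiated cells (SD, n = 3), with 678 in Lysfree 1 and 575 and 569 in Lysfree 2 and 3. Sums for macrophage, endothelial, epithelial and skeletal muscle markers stayed at or below 5.01, 0.272, 1.72 and 3.98 FPKM. Among these markers Ptprc, Kdr, Epcam and Myod1 were at no more than 3 counts in every library, but others were counted. Cd68 carried most of the macrophage sum, with 30 to 48 counts in Undifferentiated and 69 to 118 in the other libraries. Des, with 55 to 241 counts, carried most of the muscle sum and was lowest in Lysfree libraries. Krt8 and Krt18 reached 22 and 30 counts in Differentiated libraries and had 0 in each Lysfree library. Pecam1 and Tek reached 13 and 14 counts. The adipocyte and fibroblast markers, and some of the others, thus moved with the groups, and their part in the results below was not tested. In bulk RNA, fewer cells of a type and less RNA per cell cannot be told apart. Library Lysfree 1 stood apart: 219 of 9390 genes lay at least 2-fold from the mean of the other libraries of its group, against 2 to 36 genes in the other 8 libraries, and mitochondrially encoded genes took 1.60% of its counts against 0.879% and 0.906% in Lysfree 2 and 3. Values without Lysfree 1 are given where it moved a result of the 10 genes, and are not given for markers and related genes. Lysfree 1 also stood apart for some of the latter, Rarg, Cyp1b1 and Dhrs9 among them.

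Alcohol dehydrogenases turn alcohols into aldehydes or ketones with NAD+, and aldehyde dehydrogenases turn aldehydes into acids with NAD+ or NADP+. Retinol follows the same route, first to retinaldehyde and then, irreversibly, to retinoic acid, the ligand of the retinoic acid receptors. Aldehyde oxidase uses molecular oxygen and a molybdenum cofactor. Fat cells meet aldehydes from lipid peroxidation and from fatty alcohol turnover, and retinoic acid is known to restrain adipogenesis in culture.

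Proximal upstream sequence was available from RefSeq (GRCm38.p6) for 6 of the 10 genes, in 8 windows, of which the 250 bases before each start site were used. Windows of Adh7, Aox1 and Aldh1a1 are shown because they hold the AP-1 heptamer TGACTCA, or TGAGTCA as it reads on the opposite strand, and the window of Adh1 because that gene had the largest fall in Lysfree. A further window of Aldh1a1, at chr19:20601718-20601967 with its start site 109253 bases inside the deposited gene, holds no heptamer and is not shown. Capitals mark the heptamer. Counted from the start site, with -1 the last base before it, the heptamer begins at -25 in Adh7, where it reads on the opposite strand, and at -220 in Aox1 and -57 in Aldh1a1, where it reads on the strand shown. All 4 windows are on the plus strand, at chr3:138217523-138217772 (Adh7), chr1:58029719-58029968 (Aox1), chr19:20492333-20492582 (Aldh1a1, whose RefSeq start lies 132 bases before the deposited gene) and chr3:138277335-138277584 (Adh1, whose RefSeq start lies 16594 bases inside the deposited gene).
Adh7: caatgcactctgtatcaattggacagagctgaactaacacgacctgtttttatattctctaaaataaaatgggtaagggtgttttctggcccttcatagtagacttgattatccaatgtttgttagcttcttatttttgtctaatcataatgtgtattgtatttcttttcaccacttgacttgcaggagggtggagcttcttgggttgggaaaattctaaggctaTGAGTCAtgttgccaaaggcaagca
Aox1: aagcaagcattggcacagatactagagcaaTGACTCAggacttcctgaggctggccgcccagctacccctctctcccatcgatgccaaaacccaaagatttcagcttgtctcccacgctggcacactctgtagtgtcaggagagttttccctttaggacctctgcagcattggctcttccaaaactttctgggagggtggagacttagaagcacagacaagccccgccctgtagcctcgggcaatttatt
Aldh1a1: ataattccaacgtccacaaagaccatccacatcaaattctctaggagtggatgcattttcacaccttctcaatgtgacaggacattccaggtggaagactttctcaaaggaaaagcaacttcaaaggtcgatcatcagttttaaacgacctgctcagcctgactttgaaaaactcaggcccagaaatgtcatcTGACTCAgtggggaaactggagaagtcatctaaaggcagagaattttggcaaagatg
Adh1: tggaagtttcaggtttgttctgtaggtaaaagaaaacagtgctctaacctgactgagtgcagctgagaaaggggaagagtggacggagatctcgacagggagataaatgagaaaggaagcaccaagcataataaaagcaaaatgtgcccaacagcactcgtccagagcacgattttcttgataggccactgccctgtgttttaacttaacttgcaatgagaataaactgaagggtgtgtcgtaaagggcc

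Of all 32851 RefSeq windows of this length, 4.46% hold the heptamer on either strand, and this motif was singled out after the sequences had been seen. The other motifs searched on both strands were TGACNNNGC (the antioxidant response element core, 10.2% of all windows), GCGTG (the xenobiotic response element core, 28.2%), CACGTG (an E box, 6.02%), CCAAT (33.8%) and TATAAA (12.4%). TGACNNNGC was in none of the 8 windows, which says only that these letters are not there. GCGTG was in the windows of Aox1 and Aldh3a2, and that of Aldh3a2 also held CACGTG. The windows differed in CpG content: that at the deposited start of Adh5 held 21 CpG, that of Adh7 held 1, and the median of all windows was 6. The Aldh3a2 window, whose RefSeq start lies 278 bases inside the deposited gene, held 18. A match is a description of letters and not of binding.

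A change was called at an adjusted p under 0.05 (edgeR's quasi-likelihood test, adjusted over all genes tested) and at least 2-fold. Between Differentiated and Undifferentiated cells, 4 of the 10 genes were called, against 21.8% of all genes tested. Aldh3b2 was higher (10.4% of all genes tested were called higher), and Adh7, Aldh1a1 and Aldh3a2 were lower (11.4%). In Lysfree relative to Undifferentiated cells 4 genes were called, against 14.3% of all genes tested. All of these, Adh1, Aldh3a1, Aldh3b2 and Aox1, were lower, beside 5.52% of all genes called higher and 8.76% called lower. Lysfree relative to Differentiated cells gave 6 calls, against 18.7% of all genes tested, with Adh7 and Aldh1a1 higher (8.14% of all genes) and Adh1, Aldh3a1, Aldh3b2 and Aox1 lower (10.5%). By adjusted p alone, with no fold threshold, 8, 5 and 7 of the 10 genes passed in the 3 comparisons, against 46.1%, 35.1% and 38.5% of all genes tested. The FPKM of the groups did not overlap for 8, 6 and 9 of the 10 genes, against 50.9%, 43.5% and 46.6% of all genes tested. Among the 9 were Adh5, at up to 20.46 FPKM in Lysfree and from 20.48 in Differentiated libraries, and Aldh1a3, at no more than 5 counts. Neither had an adjusted p under 0.05 in that comparison. The median log2 fold change over the 10 genes was -0.19, -0.58 and -0.70 in the 3 comparisons, beside 0.02, -0.02 and -0.06 over all genes tested. The comparisons share libraries in pairs, so they are not independent of each other. Without Lysfree 1 the same 4 genes were called against Undifferentiated cells, at -3.67 (Adh1), -1.84 (Aldh3a1), -1.15 (Aldh3b2) and -1.73 (Aox1) on the log2 scale, and the same 6 against Differentiated cells, at -4.01 (Adh1), 1.98 (Adh7), 1.89 (Aldh1a1), -1.79 (Aldh3a1), -3.44 (Aldh3b2) and -1.40 (Aox1).

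**Figure D1:**
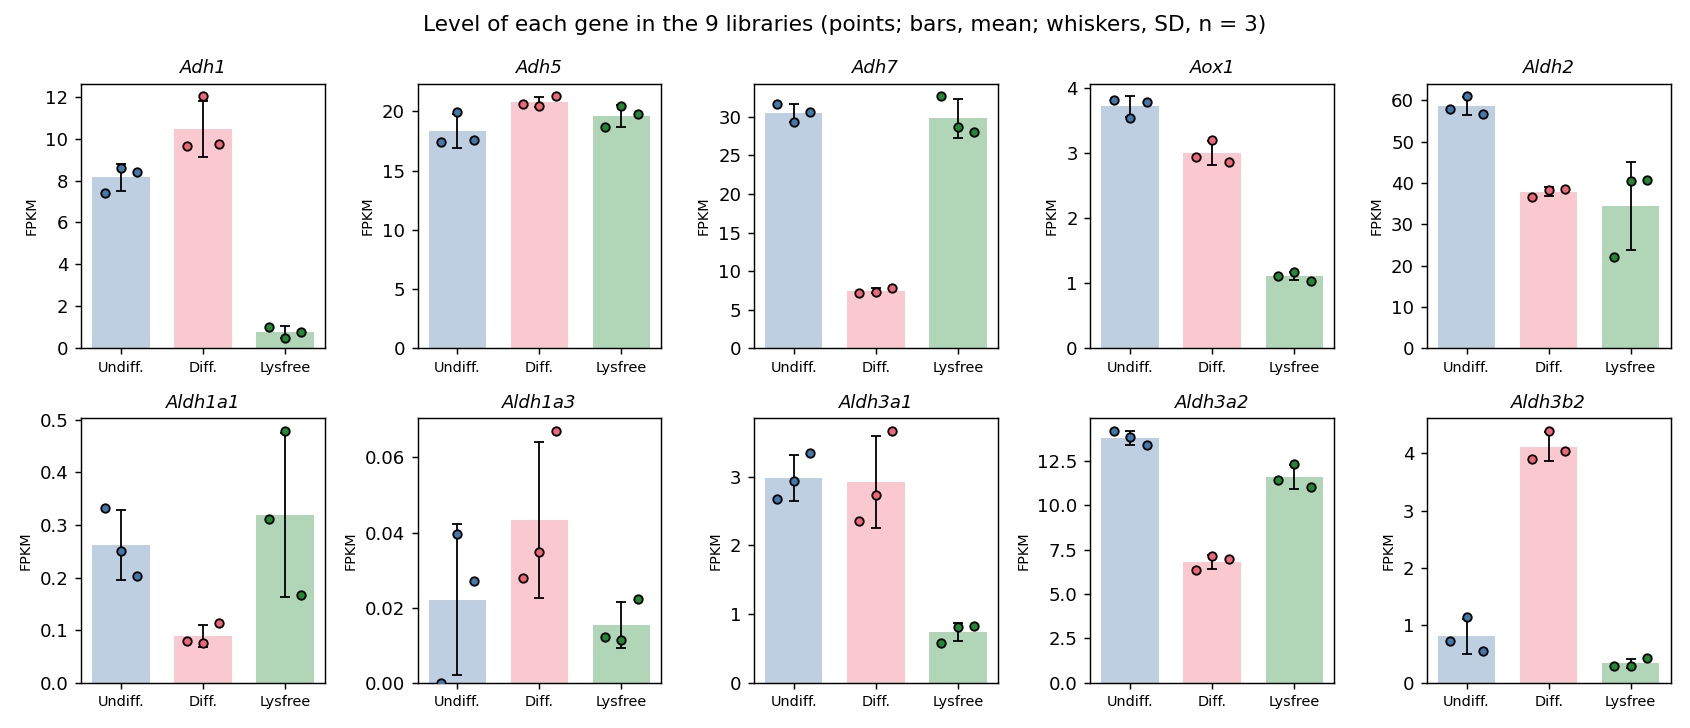
FPKM (the deposited level per gene length and library size, y axes from 0 and differing between panels) of each of the 10 genes in the 9 libraries; points are libraries, bars group means and whiskers SD (n = 3). Adh7 stood at 7.20 to 7.80 in Differentiated against 28.1 to 32.7 in the other libraries, and Adh1 at 0.470 to 1.02 in Lysfree against 7.42 to 12.02.

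The 3 alcohol dehydrogenases lie in 1 cluster on chromosome 3 and on the same strand, and they moved in 3 different ways. Adh1 (138260991 to 138290698), the class I enzyme that oxidises ethanol and retinol, was low in Lysfree cells. Its level was 7.42, 8.62 and 8.42 FPKM in the Undifferentiated libraries, 9.67, 12.02 and 9.73 in the Differentiated libraries and 1.02, 0.470 and 0.785 in Lysfree 1, 2 and 3. The groups did not overlap, with Differentiated highest and Lysfree lowest. The fitted log2 fold change was -3.73 (SE 0.21, adjusted p = 4.29e-12) from Differentiated to Lysfree cells, a 13.3-fold lower level. Against Undifferentiated cells the Lysfree difference was -3.38 (SE 0.21, adjusted p = 8.24e-15). The difference between Differentiated and Undifferentiated cells, 0.34 (SE 0.10, adjusted p = 0.00117), stayed under 2-fold. Lysfree 1 had the highest Adh1 of its group.

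Adh7 (138217760 to 138233382), the class IV enzyme known for its activity on retinol, was low in Differentiated cells alone. It measured 31.7, 29.4 and 30.6 FPKM in Undifferentiated, 7.20, 7.29 and 7.80 in Differentiated, and 32.7, 28.6 and 28.1 in Lysfree libraries. Undifferentiated and Lysfree values overlapped, and every Differentiated value lay below them. Differentiated cells fell by 2.07 on the log2 scale relative to Undifferentiated cells (SE 0.07, adjusted p = 1.00e-191), and Lysfree cells stood 2.07 above Differentiated cells (SE 0.10, adjusted p = 6.38e-13). Between Lysfree and Undifferentiated cells the difference was 0.01 (95% interval -0.19 to 0.22, adjusted p = 0.959).

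Adh5 (138443093 to 138455499) codes for the class III enzyme that, with glutathione, oxidises formaldehyde. It changed by less than 2-fold in every comparison, at 17.4, 19.96 and 17.5 FPKM in Undifferentiated, 20.6, 20.5 and 21.3 in Differentiated, and 18.6, 20.5 and 19.8 in Lysfree libraries. Differentiated cells were higher than Undifferentiated cells by 0.16 on the log2 scale (SE 0.06, adjusted p = 0.0219). The Lysfree differences were 0.15 relative to Undifferentiated (95% interval -0.06 to 0.36, adjusted p = 0.306, or 0.0454 without Lysfree 1) and -0.02 relative to Differentiated cells (-0.21 to 0.17, adjusted p = 0.889).

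Adh7 and Adh1 are 27608 bases apart with no annotated gene between them. Adh1 and Adh5 are 152394 bases apart, and Adh6a, Adh6b and Adh4 lie between them. Transcripts of the 3 genes are 66.7% to 69.2% identical over their aligned part and share no run of 50 bases. Antisense genes overlap Adh1 (Gm16559, at most 4 counts in a library) and Adh7 (0610031O16Rik, 2 to 15 counts), and the strand setting of the count is not given in the sources used here.

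Together the 3 genes summed to 57.0 ± 0.813 FPKM in Undifferentiated, 38.7 ± 1.16 in Differentiated and 50.2 ± 1.93 in Lysfree cells (SD, n = 3). Within that sum Adh1 made up 14.3% ± 1.013, 27.0% ± 2.78 and 1.503% ± 0.509 (SD, n = 3) in the same order. The summed level in Lysfree cells was thus nearer to the Undifferentiated one, while its makeup differed from both.

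Aox1 (chromosome 1, 58029931 to 58106413, plus strand) codes for aldehyde oxidase, which oxidises aldehydes, retinaldehyde included, and many nitrogen heterocycles. It stepped down across the groups without overlap. The level was 3.82, 3.53 and 3.79 FPKM in Undifferentiated, 2.93, 3.20 and 2.86 in Differentiated, and 1.11, 1.17 and 1.04 in Lysfree libraries. Lysfree cells were lower by a log2 fold change of -1.37 relative to Differentiated (SE 0.13, adjusted p = 2.03e-08) and of -1.70 relative to Undifferentiated cells (SE 0.14, adjusted p = 3.88e-12). The difference between Differentiated and Undifferentiated cells was -0.33 (SE 0.09, adjusted p = 0.00032), under 2-fold. On log2(FPKM + 1) with limma the Lysfree difference from Differentiated cells was -0.92, also under 2-fold, a scale that compresses low levels.

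Aldh2 (chromosome 5, 121566027 to 121593824, minus strand), the mitochondrial enzyme that clears acetaldehyde, had the highest mean FPKM of the 10 genes in every group, FPKM being a level per length. It was 57.9, 61.0 and 56.8 FPKM in Undifferentiated and 36.7, 38.4 and 38.5 in Differentiated libraries. Lysfree 1 held 22.2 FPKM, and Lysfree 2 and 3 held 40.5 and 40.6. All Differentiated and Lysfree values lay below the Undifferentiated ones, and the Differentiated values fell inside the spread of the Lysfree ones. The log2 fold change was -0.66 for Differentiated (SE 0.05, adjusted p = 1.28e-33) and -0.72 for Lysfree (SE 0.14, adjusted p = 7.43e-05) relative to Undifferentiated cells, neither reaching 2-fold. For Lysfree relative to Differentiated cells it was -0.07 (95% interval -0.39 to 0.25, adjusted p = 0.743). Without Lysfree 1 this last value turned to 0.15 (adjusted p = 0.00278), and the difference from Undifferentiated cells was -0.51. In Lysfree 1 the gene stood 0.87 below the other Lysfree libraries on the log2 scale, and 327 of 9390 genes were at least as far from them.

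**Figure D2:**
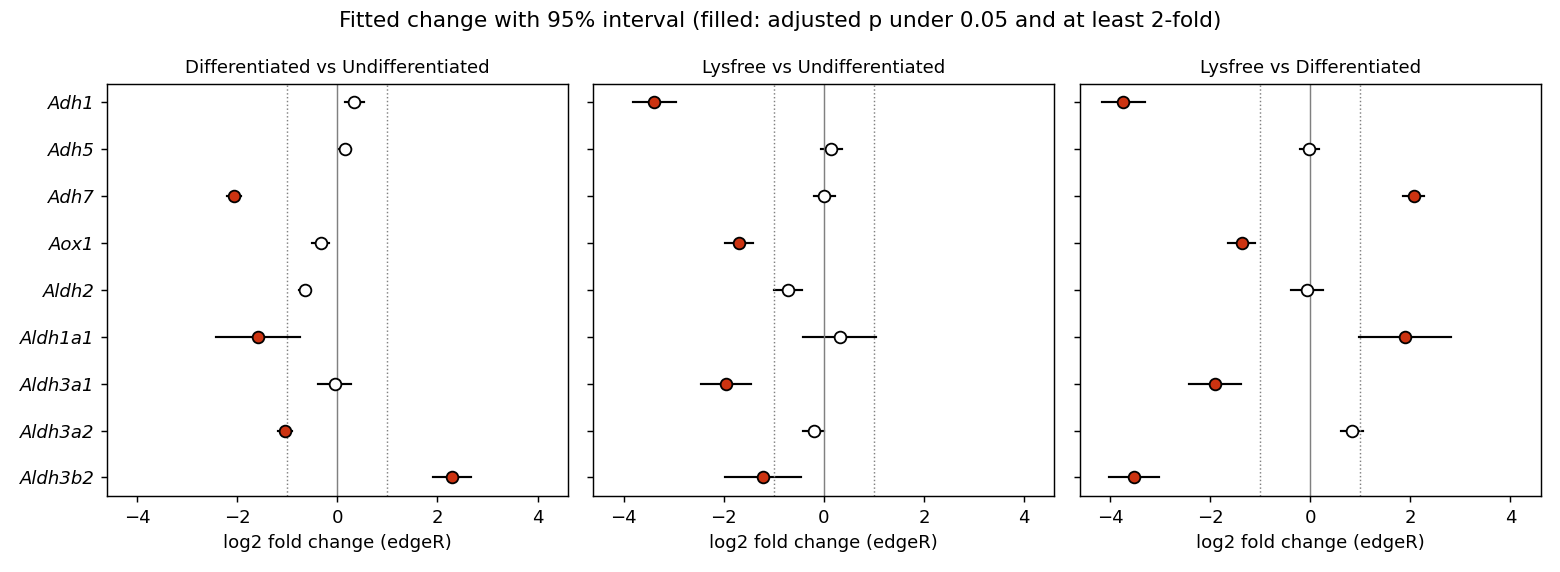
Fitted log2 fold changes (x axis, edgeR) of 9 of the 10 genes in the 3 comparisons, with 95% intervals; filled points had an adjusted p under 0.05 and at least 2-fold, and dotted lines mark 2-fold. Aldh1a3, near the counting floor, is not drawn. Adh1 and Aldh3b2 lay farthest to the left in the panel of Lysfree against Differentiated, at -3.73 and -3.51.

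The retinaldehyde dehydrogenases among the 10 genes, Aldh1a1 and Aldh1a3, make retinoic acid, and both were close to the limit of detection. Aldh1a1 (chromosome 19, 20492715 to 20643462, plus strand) had 35, 27 and 16 counts in Undifferentiated, 6, 7 and 9 in Differentiated, and 27, 45 and 16 in Lysfree libraries. That is 0.203 to 0.333, 0.0762 to 0.113 and 0.167 to 0.478 FPKM. Every Differentiated value lay below those of the other groups, which overlapped. The log2 fold change was -1.58 for Differentiated relative to Undifferentiated cells (SE 0.43, adjusted p = 0.000582) and 1.89 for Lysfree relative to Differentiated cells (SE 0.44, adjusted p = 0.00143). Lysfree relative to Undifferentiated cells gave 0.32 (95% interval -0.41 to 1.04, adjusted p = 0.529). Neither called change reached 2-fold on log2(FPKM + 1) with limma, at -0.21 and 0.27, and the first was -0.92 on log2(FPKM + 0.1). Aldh1a3 (chromosome 7, 66390890 to 66427517, minus strand) had 0, 4 and 2 counts in Undifferentiated, 2, 3 and 5 in Differentiated, and 1, 1 and 2 in Lysfree libraries. No difference in Aldh1a3 was detectable at this depth, and no fold is given.

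Aldh1a7, the gene next to Aldh1a1 on chromosome 19 and the nearest to it in sequence of the genes compared, behaved otherwise. It rose from 1.34 ± 0.257 FPKM in Undifferentiated to 125 ± 2.08 in Differentiated cells and stood at 4.51 ± 0.140 in Lysfree cells (SD, n = 3). The log2 fold changes were 6.52 (SE 0.09) for Differentiated and 1.80 (SE 0.20) for Lysfree relative to Undifferentiated cells, and -4.73 (SE 0.10) between Lysfree and Differentiated cells, all called. Transcripts of the pair are 89.5% identical over 2017 aligned bases, and 6.54% of the 50-base windows of Aldh1a1 occur unchanged in Aldh1a7. Reads could therefore be placed on the wrong member, and the 6 to 9 counts of Aldh1a1 in Differentiated libraries stand beside 3994 to 4759 counts of Aldh1a7. The level of Aldh1a1 is uncertain to that extent.

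The ALDH3 enzymes act on medium- and long-chain aldehydes. Aldh3a1 and Aldh3a2 face each other on chromosome 11, 4995 bases apart with no gene between them, and their levels followed different patterns. Aldh3a1 (61207537 to 61218421, plus strand), a cytosolic enzyme abundant in the cornea, had 2.68, 2.93 and 3.34 FPKM in Undifferentiated, 2.36, 2.74 and 3.67 in Differentiated, and 0.586, 0.810 and 0.823 in Lysfree libraries. Undifferentiated and Differentiated values overlapped, and all Lysfree values were lower. The log2 fold change in Lysfree cells was -1.91 relative to Differentiated (SE 0.25, adjusted p = 1.81e-06) and -1.95 relative to Undifferentiated cells (SE 0.25, adjusted p = 5.75e-08). Differentiated relative to Undifferentiated cells gave -0.05 (95% interval -0.38 to 0.28, adjusted p = 0.820), and the sign turned when single libraries were left out.

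Aldh3a2 (61223417 to 61267464, minus strand) codes for the fatty aldehyde dehydrogenase of the endoplasmic reticulum. Its levels were 14.1, 13.8 and 13.4 FPKM in Undifferentiated, 6.35, 7.13 and 6.95 in Differentiated, and 11.4, 12.3 and 11.03 in Lysfree libraries. The 3 groups did not overlap, with Lysfree in the middle. Differentiated cells were lower than Undifferentiated cells by a log2 fold change of -1.04 (SE 0.07, adjusted p = 2.91e-48), just past 2-fold. The call was lost without Differentiated 1, at -0.99, and with limma on log2(FPKM + 1), at -0.92. Lysfree cells stood 0.83 above Differentiated cells (SE 0.10, adjusted p = 9.29e-07), under 2-fold. Relative to Undifferentiated cells the Lysfree value was -0.20 (95% interval -0.41 to 0.01, adjusted p = 0.142, or 0.00817 without Lysfree 1).

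Aldh3b2 (chromosome 19, 3972328 to 3981645, plus strand) belongs to the lipid-anchored ALDH3B enzymes, which oxidise fatty aldehydes, and it was the only gene of the 10 called higher in Differentiated than in Undifferentiated cells. It measured 0.723, 1.15 and 0.554 FPKM in Undifferentiated, 3.89, 4.39 and 4.05 in Differentiated, and 0.292, 0.294 and 0.433 in Lysfree libraries. No values overlapped between groups. The log2 fold change was 2.28 for Differentiated relative to Undifferentiated cells (SE 0.19, adjusted p = 7.51e-31) and -3.51 for Lysfree relative to Differentiated cells (SE 0.24, adjusted p = 1.08e-10). Relative to Undifferentiated cells the Lysfree value was -1.21 (SE 0.37, adjusted p = 0.00931). That last call rests on Undifferentiated 2, the highest of its group: without it the value was -0.86 (adjusted p = 0.129). With limma it was -0.42 on log2(FPKM + 1) and -1.01 on log2(FPKM + 0.1), at adjusted p of 0.0601 and 0.0569.

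The ALDH3B genes are near copies. Of the 50-base windows of the Aldh3b2 transcript, 23.5% occur unchanged in Aldh3b3, its neighbour on chromosome 19 (87.0% identity over the aligned part), and 5.83% in Aldh3b1 (85.0%). Aldh3b1 fell from 15.0 ± 0.791 FPKM in Undifferentiated to 5.01 ± 0.296 in Differentiated cells (log2 fold change -1.62, SE 0.11) and was 2.75 ± 0.920 in Lysfree cells (SD, n = 3), a direction opposite to that of Aldh3b2 in the first comparison. Aldh3b3 had at most 15 counts in a library and 0 in each Lysfree library. How reads shared by such copies were counted is not given in the sources used here, so the level of Aldh3b2 is uncertain.

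**Figure D3:**
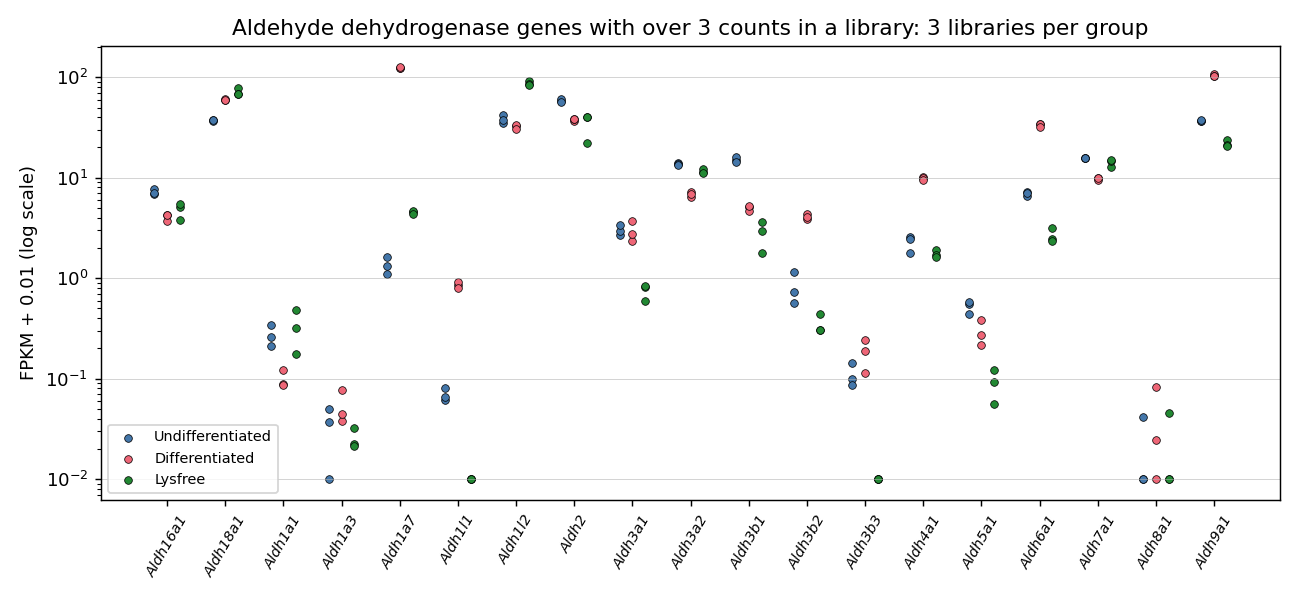
FPKM + 0.01 (log axis) of 19 aldehyde dehydrogenase genes with over 3 counts in any library; each point is 1 library, coloured by group. Aldh1a7 reached 124 to 128 FPKM in Differentiated libraries, while Aldh1a1 lay at 0.0762 to 0.113 there.

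The 10 genes summed to 137 ± 3.17 FPKM in Undifferentiated, 93.5 ± 3.26 in Differentiated and 98.7 ± 9.17 in Lysfree cells (SD, n = 3). Aldh2 and Adh7 led the sum in Undifferentiated cells, with 42.7% ± 0.611 and 22.3% ± 1.26. In Differentiated cells Adh5 took the second place with 22.2% ± 0.788, and Adh7 held 7.94% ± 0.304. Lysfree cells again had Adh7 in second place, at 30.5% ± 5.63 beside 34.4% ± 8.06 for Aldh2. In Lysfree 1 Adh7, at 37.0%, was ahead of Aldh2, at 25.1%, an order seen in no other library.

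**Figure D4:**
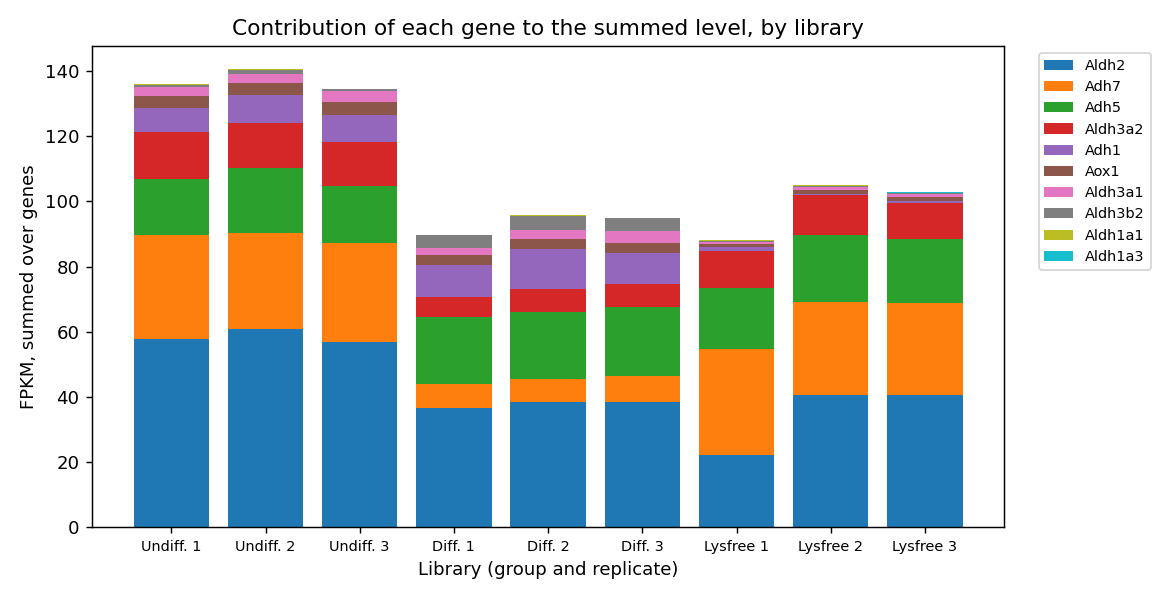
Stacked FPKM of the 10 genes (y axis) in each of the 9 libraries (x axis); colours are genes. The stack was 134.6 to 140.7 FPKM high in Undifferentiated, 89.8 to 95.8 in Differentiated and 88.2 to 105 in Lysfree libraries, and the Adh1 band was thin in all 3 Lysfree libraries.

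Of all genes tested, 21.8% were called between Differentiated and Undifferentiated cells, 14.3% between Lysfree and Undifferentiated and 18.7% between Lysfree and Differentiated cells. These shares stand beside the counts of this and the following lists, several of which are near them. Of the 15 other aldehyde dehydrogenase genes, 14 were tested in each comparison. Differentiated relative to Undifferentiated cells had 5 called higher and 1 lower. Beside Aldh1a7, the rises included Aldh6a1, the methylmalonate semialdehyde dehydrogenase of valine breakdown, from 6.89 ± 0.319 to 33.5 ± 1.24 FPKM (log2 fold change 2.26), and the fall was Aldh3b1. The other rises were Aldh1l1, Aldh4a1 and Aldh9a1, named after their values were seen. In Lysfree relative to Undifferentiated cells 2 were higher and 5 lower. The rises were Aldh1a7 and Aldh1l2, the mitochondrial formyltetrahydrofolate dehydrogenase, from 38.1 ± 3.41 to 87.1 ± 3.86 FPKM (1.24). The falls included Aldh3b1 (-2.40) and Aldh6a1, to 2.67 ± 0.454 FPKM (-1.33), and, named after their values were seen, Aldh1l1, Aldh3b3 and Aldh5a1, none of which had more than 11 counts in a Lysfree library. Lysfree relative to Differentiated cells had 1 higher, Aldh1l2 (1.51), and 7 lower, with Aldh1a7 (-4.73) and Aldh6a1 (-3.59) the largest falls by the naming rule.

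Among 5 other alcohol dehydrogenases, Adh4, Adh6a and Adh6b were barely counted. Adhfe1, a mitochondrial hydroxyacid-oxoacid transhydrogenase, went from 3.11 ± 0.579 FPKM in Undifferentiated to 15.4 ± 0.745 in Differentiated and 1.37 ± 0.114 in Lysfree cells, called in all 3 comparisons (log2 fold changes 2.27, -1.14 and -3.43, the last between Lysfree and Differentiated cells). The middle call, Lysfree relative to Undifferentiated cells, was lost without Undifferentiated 2 and with limma on log2(FPKM + 1). Sord, the sorbitol dehydrogenase, was 58.2 ± 3.56, 24.3 ± 1.23 and 50.9 ± 2.57 FPKM, called lower in Differentiated than in Undifferentiated cells (-1.29) and higher in Lysfree than in Differentiated cells (1.13).

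Of 10 genes for relatives of aldehyde oxidase and for its molybdenum cofactor, 2 were higher and 1 lower in Differentiated than in Undifferentiated cells. Again 2 were higher and 1 lower in Lysfree than in Undifferentiated cells, and 1 each way was called between Lysfree and Differentiated cells. Xdh, the xanthine dehydrogenase related to Aox1, had 38.5 ± 1.27 FPKM in Undifferentiated, 24.2 ± 0.0962 in Differentiated and 97.1 ± 2.73 in Lysfree cells. It was called higher in Lysfree cells than in both others (log2 fold changes 1.38 and 2.07), while Aox1 was called lower. Gphn, which inserts molybdenum into the cofactor, rose in Differentiated cells from 7.42 ± 0.573 to 17.5 ± 0.629 FPKM (1.22). Mocs1, which begins the synthesis of the cofactor, was lower in Lysfree than in Differentiated cells, at 9.25 ± 1.21 against 27.9 ± 1.64 FPKM (-1.53). The other calls, Aox2 and Aox3, named after their values were seen, were at 0.521 FPKM or less.

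A list of 18 genes for retinol dehydrogenases and reductases, with the carotene oxygenases Bco1 and Bco2 and the acyltransferase Lrat among them, was examined, of which 14 were tested between Differentiated and Undifferentiated cells and 15 in the other comparisons. There 6 were higher and 0 lower in Differentiated cells, Bco1 being 1 of the 6, 3 higher and 0 lower in Lysfree relative to Undifferentiated cells, and 1 higher and 5 lower in Lysfree relative to Differentiated cells. Dhrs9, a retinol dehydrogenase, was 5.42 ± 0.290 FPKM in Undifferentiated, 44.2 ± 2.22 in Differentiated and 15.5 ± 3.54 in Lysfree cells and was called in each comparison (log2 fold changes 3.00, 1.56 and -1.45). Rdh12 rose from 0.187 ± 0.0909 to 1.65 ± 0.326 FPKM in Differentiated cells (3.09) and was 0.103 ± 0.0894 in Lysfree cells (-3.91). Rdh13 was higher than in Undifferentiated cells (3.00 ± 0.0999 FPKM) both in Lysfree (7.22 ± 0.601, 1.32) and in Differentiated cells (6.30 ± 0.200, 1.05), and Lysfree relative to Differentiated cells gave 0.26, not called. Dhrs7 was the gene called higher in Lysfree than in Differentiated cells (25.3 ± 2.39 against 11.6 ± 0.391 FPKM, 1.19). Named after their values were seen, Rdh16, at no more than 6 counts in a library, was the remaining call in Lysfree relative to Undifferentiated cells, and Rdh5, Rdh11 and the oxygenase gene Bco1 were the remaining falls from Differentiated to Lysfree cells.

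Retinoid carriers, receptors and clearance enzymes are given by their named genes. Cyp26b1, which breaks down retinoic acid, was 3.95 ± 0.374, 2.41 ± 0.109 and 13.7 ± 1.11 FPKM in the 3 groups, called higher in Lysfree cells than in both others (log2 fold changes 1.85 and 2.57). Fabp5, which carries fatty acids and retinoic acid, rose from 26.0 ± 3.18 FPKM in Undifferentiated to 443 ± 14.8 in Differentiated cells (4.06) and was 46.3 ± 6.08 in Lysfree cells (-3.19). Rarg, a retinoic acid receptor, was 49.7 ± 0.820, 16.2 ± 0.975 and 34.9 ± 6.71 FPKM, called lower in Differentiated than in Undifferentiated cells (-1.64) and higher in Lysfree than in Differentiated cells (1.17). Rbp7, a retinol-binding protein, rose from 0.293 ± 0.138 to 2.13 ± 0.436 FPKM in Differentiated cells (2.74) and had at most 3 counts in each Lysfree library. Other falls from Differentiated to Lysfree cells, named after their values were seen, were Rxrg, under 1 FPKM, and Rxra, at 26.7 FPKM in Lysfree against 62.0 in Differentiated cells (-1.15).

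The enzymes that work in the opposite direction, aldehyde and ketone reductases, numbered 18 tested. In Differentiated relative to Undifferentiated cells 6 were higher and 2 lower. In Lysfree cells 2 were higher and 2 lower relative to Undifferentiated, and 2 higher and 7 lower relative to Differentiated cells. Cbr3, a carbonyl reductase, was 30.0 ± 2.26, 379 ± 21.7 and 47.3 ± 5.40 FPKM in Undifferentiated, Differentiated and Lysfree cells (log2 fold changes 3.63 in Differentiated relative to Undifferentiated and -2.94 in Lysfree relative to Differentiated cells). Cbr2 was 11.2 ± 1.00, 77.2 ± 3.58 and 12.1 ± 0.703 FPKM (2.77 and -2.61). Akr1c14, a hydroxysteroid dehydrogenase, fell from 22.1 ± 0.790 to 0.600 ± 0.0603 FPKM in Differentiated cells (-5.23) and was 1.94 ± 0.579 in Lysfree cells, higher than in Differentiated cells (1.75), as was Akr1b7 (2.23). Akr1b3, the aldose reductase, was 8.42 ± 0.806, 26.3 ± 2.12 and 19.8 ± 1.75 FPKM in the 3 groups, called higher than in Undifferentiated cells in both Differentiated (1.61) and Lysfree cells (1.28). Akr1b7 was also higher in both (1.07 and 3.31), and Dcxr was lower in Lysfree than in Undifferentiated cells (-1.07). Ptgr1, which reduces lipid enals and enones, fell in Differentiated cells from 3.05 ± 0.377 to 1.51 ± 0.257 FPKM (-1.04).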

How the data were processed

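The members and lists were chosen with earlier results of these data known. The authors discarded reads of low quality or with adaptor sequence and mapped the rest to mm10, and the submitters' processing notes name HISAT2 2.0.5 and featureCounts 1.5.0-p3. They deposited raw counts per gene and FPKM for the same genes. In each library the deposited FPKM equalled the count per kilobase of the listed gene length and counted read total, times a factor of 0.932 to 1.04, so a further scaling entered. Coordinates are those of the deposited tables. Libraries were assigned from their labels, and 0 sample columns were left unmapped. Levels are FPKM, and tests used counts.

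Each pair of groups was fitted with edgeR 4.0.16 (glmQLFit, glmQLFTest, TMM, Benjamini-Hochberg adjustment) in R 4.3.3 over all genes counted at least once in the 6 libraries compared. The SE is the log2 fold change divided by the square root of F. DESeq2 1.42.0 and limma 3.58.1 were alternatives. The step was tested on simulated data. All 10 genes were named, and from each of the 7 related lists, in each comparison, up to 2 of the largest rises and falls among called genes with a mean of at least 1 FPKM in the higher group; the 2 genes nearest in pattern were named for each member at that level. At most 3 counts in every library was taken as the floor, which covers counting error only. An exact permutation test of 1 gene, 3 libraries against 3, cannot reach 0.05. Counts for the list of retinoid carriers, receptors and clearance enzymes are not reported here.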

Additional observations from a re-analysis of the deposited data

How the results depend on the processing

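The alternatives were DESeq2, its size factors, library sizes alone, edgeR's expression filter, all 9 libraries in a single fit, limma on log2(FPKM + 1) and log2(FPKM + 0.1), no fold threshold, the replicate block, and each library left out in turn. Of the values of single genes among the 10 under these alternatives, 417 kept their direction and side of the threshold, 9 lost the call, 6 gained it and 15 changed sign. All 6 gains came from dropping the fold threshold. The number of the 10 genes called in Differentiated relative to Undifferentiated cells was 4, against 2 with limma on log2(FPKM + 1) and 8 with no fold threshold. Leaving out a library gave 3 to 4 calls there, 3 to 4 in Lysfree relative to Undifferentiated and 6 to 6 in Lysfree relative to Differentiated cells. All genes called numbered 5329, 3426 and 4507 in the 3 comparisons, 2726, 1474 and 2198 with limma on log2(FPKM + 1), and 11260, 8428 and 9280 with no fold threshold. Of the counts of called genes in the related lists under these alternatives, 293 stayed within 1.5 times the reported count and 22 did not, most of them with limma on log2(FPKM + 1) or with no fold threshold. No other scaling moved the median of the genes passing edgeR's expression filter by more than 0.0743 on the log2 scale. Sign changes concerned values that had not been called. Adh7 in Lysfree relative to Undifferentiated cells became -0.0069 with DESeq2, -0.0068 with its size factors, -0.024 with the expression filter, -0.0090 with all 9 libraries, -0.037 and -0.039 with limma on log2(FPKM + 1) and log2(FPKM + 0.1), and ranged from -0.085 (without Lysfree 1) to 0.049 over the libraries left out, with -0.017 without Undifferentiated 2. Aldh3a1 in Differentiated relative to Undifferentiated cells ranged from -0.25 to 0.075 (without Differentiated 1) over the libraries left out, with 0.04 without Undifferentiated 3. In Lysfree relative to Undifferentiated cells Aldh1a3 ranged from -1.02 to 0.36 (without Undifferentiated 2) and Aldh1a1 from -0.11 (without Lysfree 2) to 0.63. In Lysfree relative to Differentiated cells, library sizes alone gave 0.056 for Adh5 and 0.0060 for Aldh2, and Aldh2 ranged from -0.21 to 0.15 (without Lysfree 1). The cause was not tested for any of these. Same-numbered libraries deviated with correlations of -0.308 to 0.282 and differently numbered ones with -0.324 to 0.304. No pairing by number was seen, but with 3 libraries per group these values cannot settle whether the libraries were paired. With the replicate block 4, 4 and 6 of the 10 genes were called, as without it. Depth limits Aldh1a1 and Aldh1a3, with at most 45 and 5 counts in a library.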

Other observations

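The genes of the aryl hydrocarbon receptor and of the NRF2 response, known inducers of Aldh3a1 and of reductases in other cells, changed in both directions. Of 21 tested, 5 were higher and 4 lower in Differentiated than in Undifferentiated cells, beside 21.8% of all genes called. Of 19 tested, 1 was higher and 3 lower in Lysfree than in Undifferentiated cells, beside 14.3%. Between Lysfree and Differentiated cells 21 were tested, with 2 higher and 5 lower in Lysfree, beside 18.7%. Ahr, the receptor, was 2.06 ± 0.160 FPKM in Undifferentiated, 0.699 ± 0.197 in Differentiated and 3.75 ± 0.647 in Lysfree cells (SD, n = 3), with a log2 fold change of 2.48 (SE 0.19) between Lysfree and Differentiated cells. Cyp1b1, its target, was 100.1 ± 4.84, 34.2 ± 1.89 and 123 ± 28.2 FPKM (1.91, SE 0.12, for the same comparison). The glutathione transferase gene Gsta4 was 40.4 ± 3.29, 23.9 ± 0.776 and 4.25 ± 1.25 FPKM, called lower in Lysfree cells than in both others (-3.20 and -2.42). Gstm1 was lower than in Undifferentiated cells (98.6 ± 7.92 FPKM) both in Differentiated (28.0 ± 0.399) and in Lysfree cells (21.3 ± 2.25). Nqo1, a quinone reductase, fell in Differentiated cells from 29.8 ± 0.509 to 9.89 ± 0.388 FPKM and was 8.21 ± 2.34 in Lysfree cells. Slc7a11, the cystine transporter, went from 0.540 ± 0.127 to 4.15 ± 0.162 and 2.36 ± 0.527 FPKM, called higher than in Undifferentiated cells in both (2.94 and 2.18). G6pdx was 26.3 ± 1.16, 91.4 ± 2.84 and 29.6 ± 0.740 FPKM, and Srxn1 was 32.4 ± 0.712, 99.2 ± 1.06 and 27.8 ± 1.30 FPKM. The other calls, also named after their values were seen, were Me1 and Gsta1.

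The genes nearest in pattern were found by the root mean square difference of log2(FPKM + 1), each gene centred on its own mean over the 9 libraries, among 12486 genes, as a description. For Adh7 the nearest were Rab6b (0.0366) and Ephx1, an epoxide hydrolase (0.0834), which stood at 175 ± 4.80, 46.9 ± 1.71 and 173 ± 2.35 FPKM in Undifferentiated, Differentiated and Lysfree cells. Nearest to Adh1 were Ppp1r3d (0.128) and the complement gene C3 (0.153), the latter at 149 ± 2.36, 152 ± 5.83 and 26.6 ± 4.47 FPKM. For Adh5 they were Zbed5 (0.0418) and Fkbp1a (0.0425), and for Aox1 Map2k6 (0.0665) and Gmds (0.0801). Aldh2 was most like Rhoc (0.0724) and 2700081O15Rik (0.0948). Rhoc had a wide spread in Lysfree cells too, at 81.7 ± 24.2 FPKM, which follows from its choice by likeness over the same 9 libraries. Aldh3a1 was most like Tfpi2 (0.0762) and Car11 (0.110), Aldh3a2 like Ift81 (0.0523) and Slc45a4 (0.0614), and Aldh3b2 like Suclg1 (0.104) and 4931406C07Rik (0.125).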
